A study of Mus musculus with 2 samples.

Results

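The genes of anti-Müllerian hormone (AMH), its receptor, the inhibin and activin subunits and the follistatin family were examined in whole ovaries of prenatally androgenized (PNA) mice and control mice. Members were taken by gene symbol: all probe sets annotated to *Amh*, *Amhr2*, *Inha*, *Inhba*, *Inhbb*, *Fst*, *Fstl1* or *Fstl3* alone, which gave 14 probe sets of 45037 and 8 genes of 20752. A probe set is a group of short oligonucleotides that together measure 1 transcript on the mouse whole-genome Affymetrix array used. No probe set named a member together with another gene. PNA mice were female ICR mice whose dams were given 350 µg of dihydrotestosterone (DHT, an androgen that is not converted to estrogen) in 70 µl of sesame oil each day from gestation day 16 to day 18, and control mice were those whose dams were given only the oil. Each group had 5 ovaries and 1 array, so no difference has a replicate check, and neither an SD nor a p-value is printed. The age of these mice, and whether the RNA of the 5 ovaries was pooled, were not given in the sources used here. GEO's labels place ovary collection at diestrus, but in a protocol for fixed ovaries, so the cycle stage of the ovaries on the arrays is uncertain.

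AMH is a glycoprotein of the TGF-beta superfamily that granulosa cells of growing follicles secrete, and that restrains the recruitment of primordial follicles and the response of follicles to FSH. It signals through the type 2 receptor encoded by *Amhr2* and through SMAD proteins. Granulosa cells also make inhibin, a dimer of the alpha subunit (*Inha*) with a beta subunit (*Inhba* or *Inhbb*), which lowers FSH secretion from the pituitary. Dimers of beta subunits are activins, which raise FSH secretion and act within the follicle, and follistatin (*Fst*) binds and neutralizes them.

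Signals are on the linear scale of the deposited table, and ratios are given as log2 of PNA over control. A gene was called higher or lower from a fold change of 1.5 upwards, which is 0.58 on the log2 scale. The floor, under which a signal was not read, was each array's 40th percentile, 30.4 on the array of control ovaries and 30.6 on that of PNA ovaries. Of the 14 probe sets, 13 lay above the floor on both arrays and 1 below it on both. Ovarian markers bear out the tissue label: 15 of 15 granulosa cell markers and 12 of 12 oocyte markers lay above the floor, while *Ovgp1*, *Foxj1* and *Pax8* of the oviduct lay below it on both arrays.

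*Amh* was the single member gene called. Its only probe set, 1450573_at, read 119 for control ovaries and 199 for PNA ovaries, 1.67-fold higher in PNA ovaries (log2 ratio 0.74). The deposited annotation aligns this probe set to chromosome 10 (plus strand), from 80805239 to 80807648. The file names no genome build for its alignments. Of the 34754 probe sets with 1 gene matched by Entrez ID, 97.5% had a first alignment that overlapped that gene in GRCm38.p6. All probe sets were divided by mean signal into 10 bins of equal number. In its bin, the eighth from the bottom, the size of the *Amh* ratio lay at percentile 97.3, and 2.60% of the probe sets in that bin were 1.5-fold or more higher. The mean log2 signal of *Amh*, 7.27, was close to the lower edge of that bin, 7.26. In the seventh bin, 3.77% of the probe sets were 1.5-fold or more higher. Ranked by ratio from the top, *Amh* was at position 200 of the 14116 genes that exceeded the floor on 1 or both arrays. With 50 added to both signals, which damps the ratios of dim probe sets, its log2 ratio was 0.56, under the 1.5-fold criterion. The gene had already been singled out from these same arrays, so its call is not independent evidence. In whole ovaries, more cells of a type cannot be told apart from more RNA per cell.

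The count of 1 higher member was read against all features on the arrays. Over the whole array, 2.16% of probe sets were 1.5-fold or more higher and 1.59% lower by as much, against 1 and 0 of the 14 member probe sets. Of the 14116 genes, 2.49% were higher and 2.16% lower, against 1 and 0 of the 8 members. The median log2 ratio of the 8 members was 0.12, and that of all genes was -0.01. In these counts 1 probe set, the brightest on average, stood for each gene. With so few members, 1 call is not a result about the group.

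**Figure D1:**
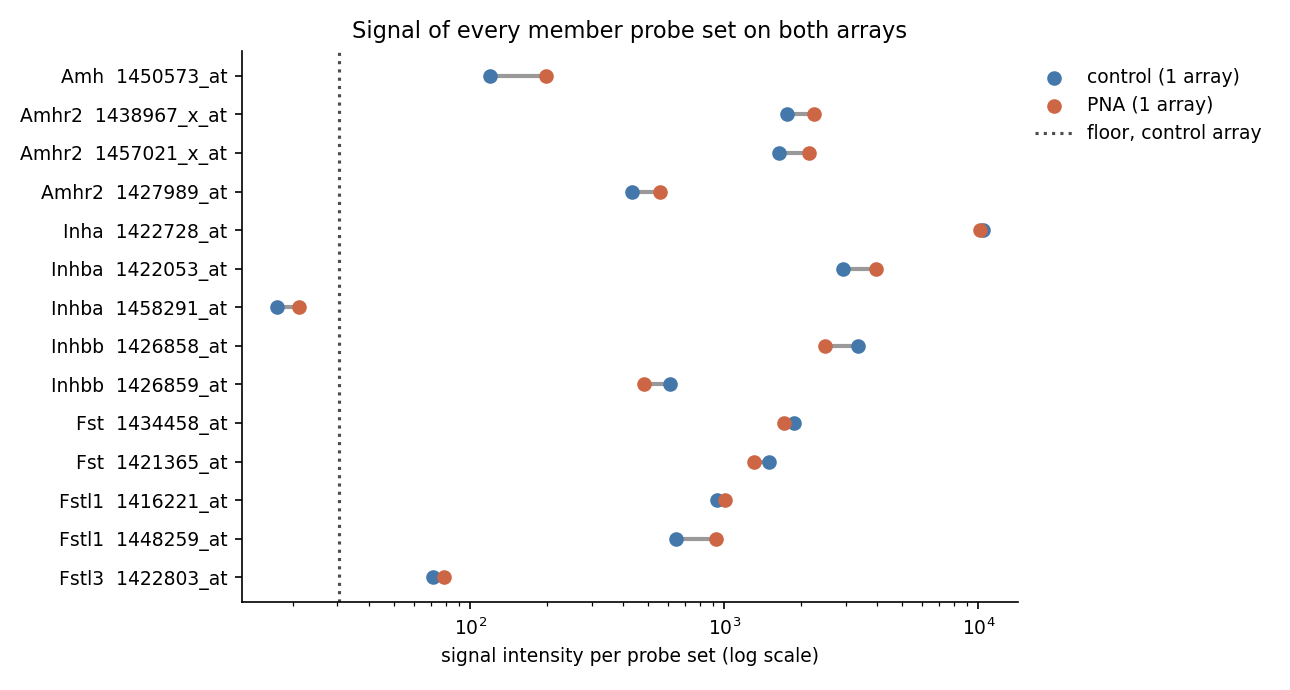
Signal intensity (log axis) of the 14 member probe sets on the control array and the PNA array, 1 point per array, with the floor of the control array dotted. The points of *Amh* at 119 and 199 lie further apart than those of any other member, both *Inhbb* probe sets have the PNA point on the left, and 1 *Inhba* probe set lies left of the floor.

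*Amhr2*, which encodes the receptor that binds AMH, had PNA signals above control on all 3 of its probe sets, each under 1.5-fold. The probe set 1438967_x_at went from 1757 in control ovaries to 2250.2 in PNA ovaries (log2 ratio 0.36). Probe set 1457021_x_at went from 1645 to 2155 (log2 ratio 0.39), and 1427989_at from 433 to 560.2 (log2 ratio 0.37). The 3 ratios agreed within 0.03, but they are not separate measurements of the gene in full. The alignments of the pair ending in _x_at cover nearly the same stretch of chromosome 15 (plus strand), 102454332 to 102454630 and 102454337 to 102454635, at the end of the span from 102445366 to 102454639 to which 1427989_at aligns. The ending marks probes that can also bind other transcripts. The sizes of the 3 ratios lay at percentiles 91.4 to 93.9 of the probe sets in their bins of mean signal.

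The bases before the start of *Amhr2* are shown because the window holds the core sequence bound by NR5A1 (steroidogenic factor 1), a regulator whose transcript was measured here. RefSeq windows of 250 bases before the transcript start (GRCm38.p6) were available for 6 of the 8 members, *Amhr2*, *Inha*, *Inhba*, *Inhbb*, *Fstl1* and *Fstl3*. *Amh* and *Fst* have no entry. Both strands were searched for AAGGTCA (NR5A1 core), GATAA (bound by GATA factors), TGACG (part of the cAMP response element) and TATAAA (found in the TATA box), none of which contains another, and capitals mark the matches. The *Amhr2* window lies at chr15:102445117-102445366 on the plus strand and overlaps the annotated span of the gene, in whole or in part.
Amhr2: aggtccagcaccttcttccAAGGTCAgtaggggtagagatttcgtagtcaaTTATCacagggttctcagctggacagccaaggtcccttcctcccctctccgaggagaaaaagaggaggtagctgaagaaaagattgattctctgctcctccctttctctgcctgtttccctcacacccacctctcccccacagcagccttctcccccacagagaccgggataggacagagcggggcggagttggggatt
The AAGGTCA begins 231 bases before the start, and GATAA is read on the opposite strand at 199 bases. Over all 32851 windows, 4.08% held AAGGTCA, 22.6% GATAA, 17.8% TGACG and 12.4% TATAAA. Among the 6 members, *Amhr2* alone held AAGGTCA or GATAA, none held TGACG, and TATAAA lay in the windows of *Inhba* and, on the opposite strand, *Fstl3*. The *Inha* window, chr1:75507359-75507608 on the plus strand, lies within the stretch to which the *Inha* probe set aligns (75507076 to 75510364). Its lack of matches therefore does not describe the bases before that stretch. A match describes the letters and is not evidence of binding.

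The subunits of inhibin and activin differed in direction, and none of them reached 1.5-fold. *Inha*, the alpha subunit that makes a dimer an inhibin, read 10386 for control and 10174 for PNA ovaries (log2 ratio -0.03). *Inhba*, the beta A subunit of inhibin A and activin A, went from 2922 to 3950.1 on 1422053_at (log2 ratio 0.43). *Inhbb*, the beta B subunit of inhibin B and activin B, went from 3346 to 2480.4 on 1426858_at (log2 ratio -0.43) and from 610.2 to 481 on 1426859_at (log2 ratio -0.34). PNA ovaries thus had the higher signal for *Inhba* and the lower signal for *Inhbb*, each by a fold change of 1.35 on the probe set with the highest mean signal. The log2 ratios of these 2 probe sets differed by 0.87, or 1.82-fold, which compares how far each moved and not their levels. That of *Inhba* exceeded that of *Inha* by 0.46, and that of *Inhbb* lay 0.40 under it. Within the bin of mean signal, the size of the ratio lay at percentile 94.9 for both *Inhba* on 1422053_at and *Inhbb* on 1426858_at, at 90.1 for the other *Inhbb* probe set, and at 21.1 for *Inha*.

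The further *Inhba* probe set, 1458291_at, lay under the floor, at 17.4 for control and 21.1 for PNA ovaries, and is given no direction. It aligns to the minus strand of chromosome 13, from 16012279 to 16012732, whereas 1422053_at aligns to the plus strand, from 16014474 to 16027262. Both *Inhbb* probe sets carry the same alignment on chromosome 1 (minus strand), 119415462 to 119438739, and *Inha* lies on the plus strand of that chromosome, from 75507076 to 75510364. The upstream windows of both beta subunits are shown for contrast, since their genes differed in direction. That of *Inhba* lies at chr13:16011601-16011850 on the plus strand, overlapping the span of the gene as for *Amhr2*, and that of *Inhbb* at chr1:119422249-119422498 on the minus strand.
Inhba: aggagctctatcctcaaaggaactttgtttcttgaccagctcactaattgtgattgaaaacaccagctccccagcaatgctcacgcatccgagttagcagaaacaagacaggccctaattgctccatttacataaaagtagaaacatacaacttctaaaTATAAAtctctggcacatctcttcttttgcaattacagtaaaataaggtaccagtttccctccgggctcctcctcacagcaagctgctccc
Inhbb: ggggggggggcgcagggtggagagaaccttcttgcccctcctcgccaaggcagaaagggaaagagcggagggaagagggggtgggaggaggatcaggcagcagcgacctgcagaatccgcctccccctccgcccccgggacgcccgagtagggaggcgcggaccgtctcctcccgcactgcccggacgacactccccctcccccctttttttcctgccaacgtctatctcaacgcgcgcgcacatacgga
The TATAAA of *Inhba* begins 91 bases before the start and is in capitals, and the *Inhbb* window holds none of the 4 motifs. As for *Inha*, the *Inhbb* window lies within the stretch to which its probe sets align. Its lack of matches and its share of G and C therefore do not describe the bases before that stretch. Of the bases, 43.2% are G or C in the *Inhba* window and 68.0% in that of *Inhbb*.

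Follistatin and its relatives had smaller differences, apart from 1 probe set of *Fstl1*. *Fst* read 1875 for control and 1713 for PNA ovaries on 1434458_at (log2 ratio -0.13), and 1495 and 1304 on 1421365_at (log2 ratio -0.20). These probe sets align to adjoining stretches of chromosome 13 (minus strand), 114452262 to 114453340 and 114453343 to 114458949, so both parts of the transcript had the lower signal in PNA ovaries. The log2 ratio of *Inhba* exceeded that of *Fst*, its product's binder, by 0.57 (1.48-fold). *Fstl3*, a follistatin-like inhibitor of activin, went from 71.3 to 78.6 on its single probe set (log2 ratio 0.14, percentile 46.6 by size in its bin), which aligns to chromosome 10 (plus strand), 79777272 to 79782630.

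*Fstl1*, a secreted glycoprotein of mesenchymal cells with a follistatin-like domain, gave unlike values on its 2 probe sets. On 1416221_at the signal was 936 for control and 1002 for PNA ovaries (log2 ratio 0.10), and on 1448259_at it was 644 and 925 (log2 ratio 0.52, or 1.44-fold). Both had the higher signal in PNA ovaries, and the file gives both the same alignment on chromosome 16 (plus strand), 37777038 to 37836520. The size of the second ratio lay at percentile 96.8 of its bin, and that of the first at percentile 56.3. As the mean of both probe sets, the log2 ratio of *Fstl1* was 0.31.

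**Figure D2:**
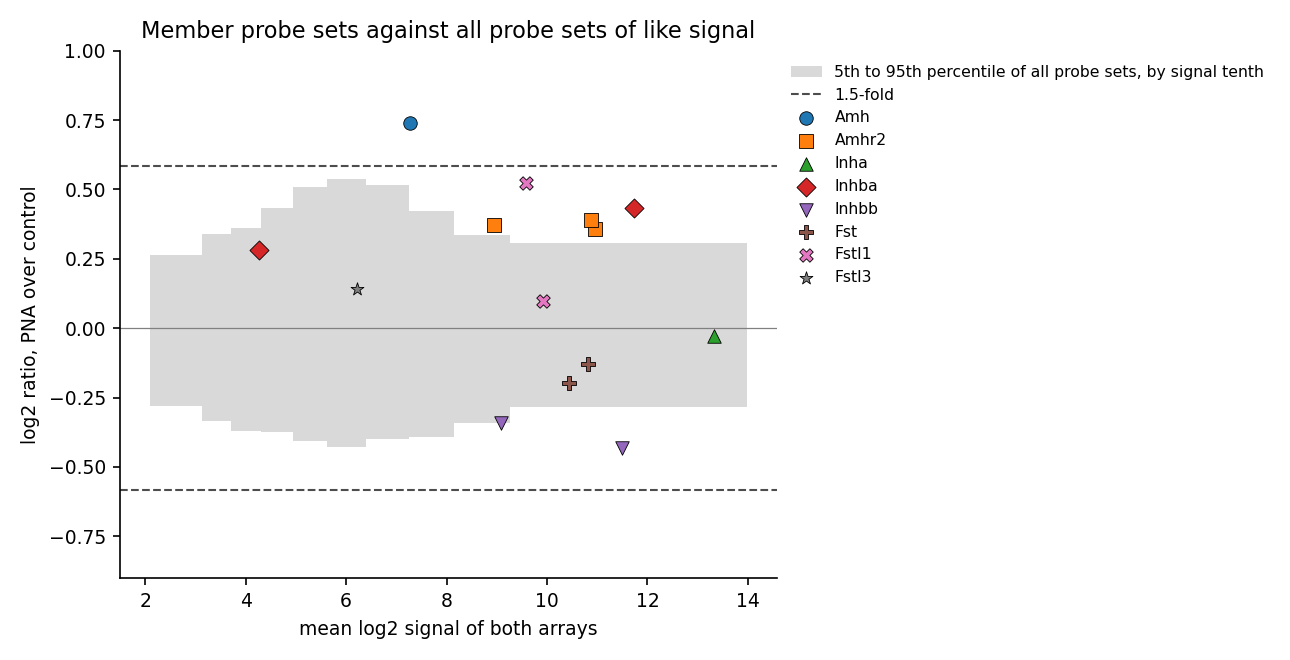
Log2 ratio of PNA over control (y axis) against the mean log2 signal of both arrays (x axis) for the 14 member probe sets, with the 5th to 95th percentile of all probe sets in each of 10 bins of signal in grey and 1.5-fold dashed. *Amh* alone lies past a dashed line, and the 3 *Amhr2* probe sets, 1 each of *Inhba*, *Fstl1* and *Inhbb* lie outside the grey band but within 1.5-fold, with the other *Inhbb* probe set at its edge.

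How far probe sets of 1 gene disagree on the same 2 arrays gives a measure of error between probe sets. It leaves out any difference between animals, and any error that the probe sets of an array share. Over 10176 pairs from 5996 genes with several probe sets above the floor on both arrays, each compared with the gene's probe set of highest mean signal, the median absolute difference in log2 ratio was 0.10 and the 95th percentile was 0.45. Pairs that differed by over 0.58 made up 2.47%. The *Amhr2* pairs differed by 0.02 and 0.03, the *Fst* pair by 0.07 and the *Inhbb* pair by 0.09, all under that median. The *Fstl1* pair differed by 0.42, at percentile 94.1. *Amh*, *Inha* and *Fstl3* have 1 probe set each, and *Inhba* has 1 above the floor, so their ratios have no such check.

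**Figure D3:**
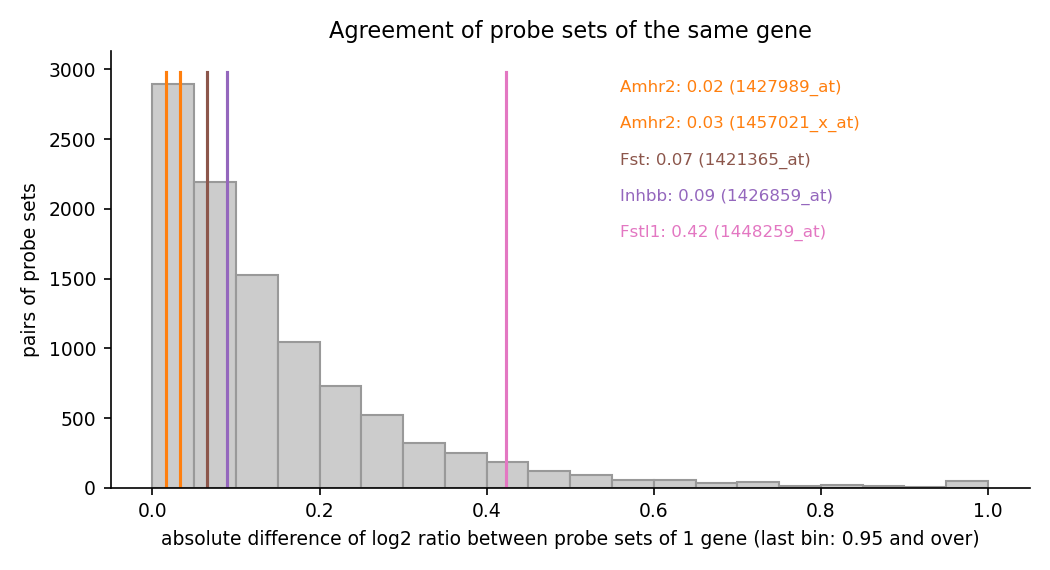
Histogram of the absolute difference in log2 ratio between probe sets of the same gene (x axis) over 10176 pairs (y axis, number of pairs), with a line for each pair of member probe sets. The lines of *Amhr2*, *Fst* and *Inhbb* stand at 0.02 to 0.09 and that of *Fstl1* at 0.42.

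Of 44 listed pathway genes, all on the array, 36 exceeded the floor on 1 or both arrays, with 0 higher, 0 lower and a median log2 ratio of -0.07. Beside the 2.49% of all genes that were higher and the 2.16% that were lower, counts of 0 among 36 are near the background and are not a result about the pathway. Among the receptors, coreceptors and SMAD transducers, 16 of 18 lay above the floor, with a median of -0.07. *Tgfbr3*, the betaglycan that presents inhibin to activin receptors, went from 1518 to 1671 (log2 ratio 0.14), and *Bmpr1a*, a type 1 receptor used by AMH, from 1073 to 928 (log2 ratio -0.21). *Acvr1*, a further type 1 receptor, went from 792 to 900.0 (log2 ratio 0.19) and *Smad4*, the SMAD shared by all branches, from 1479 to 1400.4 (log2 ratio -0.08). The list ran from -0.24 for *Smad1*, a SMAD phosphorylated by AMH and BMP receptors, to 0.52 for *Smad6*, which inhibits that branch. Genes at the ends of a list were named after their values were seen. In the lists that follow, so were *Nr5a1*, *Kitl*, *Fshr*, *Gdf9*, *Dcn*, *Pdgfra*, *Col1a1*, *Col1a2*, *Tcf21* and *Nr2f2*.

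Among other beta subunits, follistatin-domain proteins, binders and proprotein convertases, 8 of 14 lay above the floor, with a median of -0.11. *Inhbe*, *Fstl4*, *Fstl5*, *Wfikkn1*, *Wfikkn2* and *Igsf1* lay below it on both arrays. *Sparc*, a matrix protein with a follistatin-like domain, went from 7543 to 6793 (log2 ratio -0.15), *Sparcl1* from 1903 to 2332 (0.29) and *Smoc2* from 1903.5 to 1396.5 (-0.45), the lowest of the list. *Pcsk5*, a convertase that cleaves TGF-beta family precursors, went from 611 to 865 (log2 ratio 0.50), but its 5 probe sets ranged from -0.58 to 0.87, so this gene has no settled direction.

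The transcription factors known to act on the *Amh* or *Inha* gene all lay above the floor, with 0 of 12 past 1.5-fold and a median of 0.08. *Nr5a1*, which encodes the factor whose core sequence is marked in the *Amhr2* window, went from 597 to 637 (log2 ratio 0.09, and 0.09 on its other probe set). *Gata4*, a partner of that factor on the *Amh* promoter, went from 264 to 348 (log2 ratio 0.40), the highest of the list, with 0.34 on its other probe set. *Esr2*, the estrogen receptor of granulosa cells, went from 443 to 312 (log2 ratio -0.50), the lowest. *Foxl2*, which maintains granulosa cell identity, went from 1521 to 1680.3 (0.14), *Nr5a2* from 1741 to 1608 (-0.11) and *Creb1* from 769 to 630.5 (-0.29). The 3 probe sets of *Nr5a2* ran from -0.11 to 0.05 and the 6 of *Creb1* from -0.29 to 0.05, so neither gene has a settled direction.

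Markers of several ovarian cell types also differed between the arrays, and their part in the member ratios was not tested. Of all 14116 genes, 2.49% were higher and 2.16% lower. The marker lists here and below are short and were chosen with earlier results of these data known. Their counts of called genes are therefore not results about cell types. Of 15 granulosa cell markers, 4 were higher and 0 lower: *Cyp19a1*, the aromatase (388 to 1578.5, log2 ratio 2.02), *Bex2* (139 to 286, 1.04), *Grem1*, a BMP antagonist (392 to 678.5, 0.79), and *Nppc* (109 to 171, 0.65). The median of the 15 was 0.08, with 9 log2 ratios over 0 and 6 under it. *Esr2* (-0.50) and *Kitl* (1249 to 892, -0.48) were the lowest, and *Fshr*, the FSH receptor, went from 213 to 180 (log2 ratio -0.25). The 4 probe sets of *Kitl* ran from -0.48 to -0.17. The summed signal of the granulosa list was 22545 in control and 23309 in PNA ovaries, a rise smaller than that of *Cyp19a1* alone. *Amh*, a product of the same cells, had a log2 ratio of 0.74, above the list's median of 0.08 and within its range of -0.50 to 2.02.

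Among 8 theca markers on the array and above the floor, *Cyp17a1* was higher (2709 to 5448, log2 ratio 1.01) and *Lhcgr*, the LH receptor, lower (1246 to 458, -1.44), with a median of 0.07. *Lhcgr* is also 1 of 10 corpus luteum markers, of which 1 was higher and 2 were lower, *Lhcgr* and *Cdkn1b* (1641 to 963, -0.77), with a median of 0.12. Of 12 oocyte markers none passed 1.5-fold, 11 had log2 ratios over 0, and the median was 0.21. *Gdf9*, an oocyte growth factor that acts on granulosa cells, went from 767 to 894 (log2 ratio 0.22).

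Stromal markers are listed because *Fstl1* is a product of mesenchymal cells, and their part in its ratio was not tested. On the brightest probe set of each gene, all 8 had log2 ratios over 0, from 0.03 to 0.55, with a median of 0.30 and none past 1.5-fold. Their summed signal was 19286 in control and 22856 in PNA ovaries. Over all probe sets of a gene the ratios ranged more widely. Those of *Tcf21* ran from -0.62 to 0.38, of *Nr2f2* from -0.14 to 0.27 and of *Pdgfra* from -0.01 to 0.47. Those of *Dcn* ran from 0.48 to 1.11, of *Col1a2* from 0.21 to 1.02 and of *Col1a1* from 0.20 to 0.55. *Dcn* went from 2826 to 3929 (0.48), *Pdgfra* from 1161 to 1612 (0.47) and *Col1a1* from 292 to 427 (0.55). Of 8 leukocyte markers above the floor, *S100a9* (46.7 to 158, log2 ratio 1.76), *S100a8* (54.0 to 176, 1.71) and *Cd14* (109 to 173, 0.68) were higher and 0 lower, with a median of 0.47 and a summed signal over the 9 on the array of 3655 and 4453. Macrophages can also express *Inhba*, and its share from them was not tested. Smooth muscle and endothelial markers had a median of -0.32, with none of 10 past 1.5-fold, and of 5 oviduct and surface epithelium markers above the floor *Krt19* was higher (145 to 266, 0.87). All 5 had log2 ratios over 0, with a median of 0.53, and the summed signal of the 8 on the array was 750.4 for control and 1096 for PNA ovaries.

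**Figure D4:**
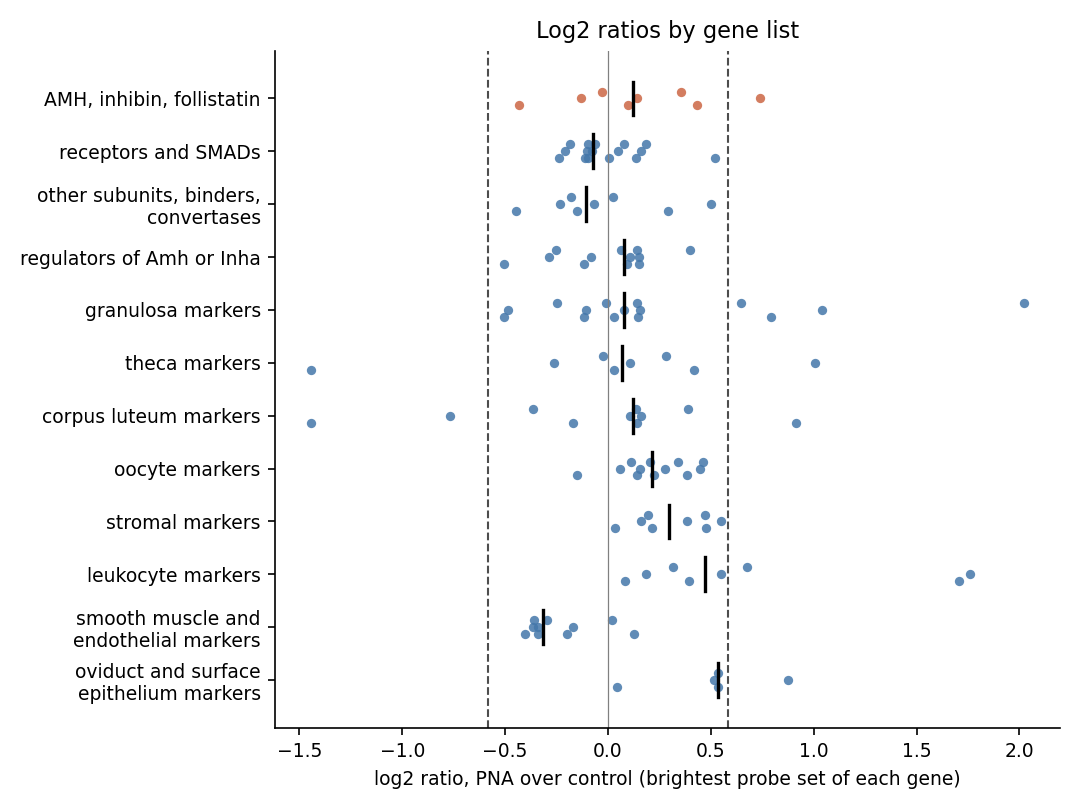
Log2 ratio of PNA over control (x axis) of each gene above the floor, by list (rows), with the member genes in orange, the median of each list as a black bar and 1.5-fold dashed. The members run from -0.43 to 0.74 around a median of 0.12, and no gene of the 3 pathway lists under them lies past a dashed line.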

How the data were processed

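RNA of whole ovaries was measured on 2 Affymetrix mouse arrays, 1 for PNA mice and 1 for control mice. The authors deposited a linear signal intensity for each of 45101 probe sets and log2 values from which the mean of the pair of arrays had been subtracted. The software, its version and the background correction were not given in the sources used here. Both tables carry the same ratios, within 2e-06. The authors' own fold changes and lists of differential genes were not used.

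The log2 ratio of PNA over control was computed from the linear signals after 64 control probe sets were left out, with Python 3.11.15, pandas 2.3.3 and numpy 2.4.6. A test needs replicates, so none was run, and the number of arrays limits the precision. Median signals were 48.7 (control) and 49.5 (PNA). The members and lists were chosen with earlier results of these data known. Named were every member and its probe sets, every listed gene past 1.5-fold, up to 4 of the brightest other genes of each pathway list, the neighbours of a called member, and the 3 genes whose ratio was closest to it. A gene was read on the probe set naming it alone that was brightest in mean log2 signal. Some listed genes are not reported here by name. The steps were checked on simulated data.

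The 11 alternatives covered scaling to the same median, quantile normalization, loess (fraction 0.3, statsmodels 0.14.6), an offset of 50, the deposited log2 values of the normalized table and of the series table, the probe set that stands for a gene, the fold change and the floor.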

Additional observations from a re-analysis of the deposited data

How the results depend on the processing

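With 50 added to both signals, or at a fold change of at least 2, 0 member genes and 0 member probe sets were called higher, against 1 each at 1.5-fold. With that offset the log2 ratio of *Amh* was 0.56. With the mean log2 ratio over all probe sets of a gene, the median of the members was 0.23 instead of 0.12. No member or pathway gene was called lower and no pathway gene higher under any of the 11 alternatives. Apart from the stricter fold change, which leaves ratios as they are, the log2 ratio ran from 0.56 to 0.75 for *Amh*, from 0.33 to 0.37 for *Amhr2*, from 0.36 to 0.44 for *Inhba*, from -0.45 to -0.39 for *Inhbb*, from -0.05 to -0.02 for *Inha*, from -0.16 to -0.12 for *Fst*, from 0.08 to 0.31 for *Fstl1* and from 0.08 to 0.14 for *Fstl3*. The lower end for *Inhba* is the mean over its probe sets, which includes 1458291_at, under the floor on both arrays. No replicate could be left out and no paired analysis was possible because each group has 1 array.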

Other observations

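Molecular function terms of the deposited annotation, which the choice of members did not use, place them in wider classes of genes. Over all 14116 genes, 2.49% were higher and 2.16% lower. Of 79 genes above the floor with growth factor activity, a term that *Amh*, *Inha*, *Inhba* and *Inhbb* carry, 4 were at least 1.5-fold higher, *Amh* among them, and 4 lower, with a median log2 ratio of 0.00. Of 44 genes with hormone activity, which *Inha*, *Inhba* and *Inhbb* carry and *Amh* does not, 3 were higher and 4 lower, with a median of -0.03. Of 241 genes with receptor binding, which *Amh*, *Inha* and *Inhba* carry, 14 were higher and 7 lower, with a median of 0.02. Of 6563 genes with protein binding, which all 8 members carry, 126 were higher and 139 lower, with a median of -0.01.

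The genes next to *Amh* on chromosome 10 that the array measures were *Sf3a2*, a splicing factor gene (757 for control and 883 for PNA ovaries, log2 ratio 0.22), and *Jsrp1* (52.5 and 69.0, log2 ratio 0.39), both under 1.5-fold. The genes whose log2 ratio over the 2 arrays was closest to that of *Amh* were *Lpin1*, the phosphatidate phosphatase lipin (131 and 219), *Tnc*, the matrix protein tenascin C (1501 and 2504), and *9430034N14Rik* (37.7 and 62.8), all at 0.74. Of 13570 genes above the floor on both arrays, 69 lay within 0.05 of it, so that a like ratio on 2 arrays singles out no gene.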
